A study of Mus musculus with 44 samples.

Results

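Bile acids are made from cholesterol in the hepatocyte, and 10 genes of that process were followed in each mouse: 5 enzymes (Cyp7a1, Cyp8b1, Cyp7b1, Cyp27a1 and Baat), 3 membrane transporters (Slc10a1, Abcb11 and Abcb4) and 2 nuclear receptors (Nr1h4 and Nr0b2). The genes were taken by name from what is known of the pathway, and each of the 10 symbols matched 1 of the 38202 genes counted in these libraries. The samples were liver and skeletal muscle of 11 male wild-type (WT) mice and 11 littermates carrying a homozygous constitutive deletion of Slc16a13 (KO), a lactate transporter gene, made by CRISPR/Cas9 on the C57BL/6N background. All 22 mice were 20 weeks old, had been given high-fat diet (HFD) for 15 weeks and, by the general rule of the study's methods, were killed after an overnight fast. No library came from mice on normal chow, and the study describes the knockout as whole-body. Neither diet nor a liver-restricted loss of the gene can therefore be read from these data. Each mouse gave 1 liver and 1 muscle library from poly(A)-selected RNA of bulk tissue, 44 libraries in all.

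In the classical route of bile acid synthesis, Cyp7a1 carries out the first and rate-limiting step, whereas the alternative route starts with Cyp27a1 and goes on through Cyp7b1. Cyp8b1 sets how much of the product is cholic acid, and Baat couples the finished acid to taurine or glycine. Slc10a1 brings conjugated bile acids back from the portal blood, Abcb11 exports them into the bile canaliculus and Abcb4 moves phosphatidylcholine into bile beside them. The bile acid receptor FXR, encoded by Nr1h4, induces Nr0b2 (SHP), a repressor that acts on Cyp7a1 and Cyp8b1, and also induces Abcb11.

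The promoters of 3 members are shown because they were the ones in which a motif tied to this receptor circuit was found. Windows reaching from 250 bases before the start of transcription to 50 bases after it were at hand from RefSeq (build GRCm38.p6) for 7 of the 10 members, with 2 windows for Slc10a1. 3 motifs were searched on both strands: the inverted repeat IR-1 bound by FXR, which is the half-site AGGTCA, 1 base of any kind and the half-site TGACCT, with up to 1 mismatch; TCAAGG, bound by the receptor Nr5a2; and CAAAGTCCA, bound by Hnf4a. The letters were chosen with these sequences in view, and a match describes the sequence only. Each promoter is written 5′ to 3′ on the strand of the gene, with the match in capitals.
Abcb11 (chr2:69342567-69342866, minus strand): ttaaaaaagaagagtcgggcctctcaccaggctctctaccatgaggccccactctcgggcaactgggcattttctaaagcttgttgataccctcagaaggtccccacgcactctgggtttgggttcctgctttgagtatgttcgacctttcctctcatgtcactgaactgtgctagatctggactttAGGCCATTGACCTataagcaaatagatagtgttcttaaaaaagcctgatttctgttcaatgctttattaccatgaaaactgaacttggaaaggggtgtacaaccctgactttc
Nr0b2 (chr4:133553126-133553425, plus strand): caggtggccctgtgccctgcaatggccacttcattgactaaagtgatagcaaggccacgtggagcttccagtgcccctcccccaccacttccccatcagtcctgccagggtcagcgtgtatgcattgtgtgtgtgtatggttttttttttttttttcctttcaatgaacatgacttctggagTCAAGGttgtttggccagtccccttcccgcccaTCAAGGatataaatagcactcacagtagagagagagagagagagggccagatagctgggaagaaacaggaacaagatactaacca
Cyp8b1 (chr9:121916256-121916555, minus strand): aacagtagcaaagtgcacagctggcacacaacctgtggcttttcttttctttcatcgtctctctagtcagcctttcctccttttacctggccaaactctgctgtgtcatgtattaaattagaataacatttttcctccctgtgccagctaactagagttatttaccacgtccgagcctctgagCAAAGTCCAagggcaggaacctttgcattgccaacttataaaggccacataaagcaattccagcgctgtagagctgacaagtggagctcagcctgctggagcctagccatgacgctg
In Abcb11 the capitals mark an IR-1 with 1 mismatch, AGGCCATTGACCT, whose first base lies at -63 from the start. Such a match was present in 27 of 32817 RefSeq promoter windows of this length, or 0.0823%. In Nr0b2 they mark TCAAGG at -68 and again at -35, a motif held by 14.4% of the windows. In Cyp8b1 they mark CAAAGTCCA at -67, held by 0.475% of the windows. The windows of Cyp27a1, Abcb4, Nr1h4 and Slc10a1 held none of the 3 as defined here.

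The deleted gene was examined first. Between 99 and 302 reads were counted on Slc16a13 in WT livers and between 0 and 8 in KO livers. In muscle, WT libraries had 4 to 22 reads and the others 11 to 40, so a loss was not seen there. The muscle log2 fold change of 0.64 did not pass the edgeR test (adjusted p = 0.495, Benjamini-Hochberg). The other muscle libraries are therefore called the muscle libraries labelled KO. By the study's description of the knockout, the deletion takes out the proximal promoter and the first exons. A count per gene also takes in reads from the rest of the gene, and where in the gene the muscle reads lie was not tested. Totals ranged from 20150712 to 35218243 counted reads per library. 4 of the 11 KO livers stood apart from all other livers in how counts depended on the length of the gene. Each gene's log2 CPM (CPM, reads scaled to library size with the TMM factors of edgeR) was taken relative to its mean over the 22 livers. The regression slope of these values on log2 gene length, fitted over genes, is thus relative to the average liver. It lay between 0.04 and 0.10 in WT livers and between 0.04 and 0.11 in 7 KO livers. In the 4 it was -0.53, -0.42, -0.25 and -0.08, so that long genes had relatively fewer reads there than in the other livers. The 4 livers are those of mice 532, 602, 583 and 611, and for each member the genotype difference in liver is also given without them. The hepatocyte markers Alb, Apoa1, Ttr, Tat, Serpina1c and Fgb together made up 70908 to 101365 CPM in WT livers and 80333 to 122989 CPM in KO livers and at most 8.04 CPM in any muscle library.

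All 10 members were well measured in liver, with at least 288 reads in every library. Levels of different genes were compared per length, from the RPKM values (reads scaled to both gene length and library size) that the authors deposited. Cyp8b1 and Slc10a1 had the highest levels in WT liver, with medians of 480 and 476 RPKM. The order then ran through Cyp27a1 (252 RPKM), Baat (184 RPKM), Abcb11 (121 RPKM), Abcb4 (117 RPKM), Nr1h4 (67.8 RPKM), Cyp7b1 (54.2 RPKM), Cyp7a1 (22.2 RPKM) and Nr0b2 (18.7 RPKM). The enzyme of the rate-limiting step and the repressor thus had the lowest levels of the 10. Neighbours in this order were compared within each mouse on log2(RPKM + 1) by a two-sided paired permutation test, adjusted over the 9 pairs by the Benjamini-Hochberg procedure. 5 steps held in that test. Slc10a1 exceeded Cyp27a1 by 0.88 ± 0.17 (SD, n = 11 mice), Cyp27a1 exceeded Baat by 0.46 ± 0.21, Baat exceeded Abcb11 by 0.58 ± 0.20 and Abcb4 exceeded Nr1h4 by 0.80 ± 0.18, each in 11 of 11 mice (adjusted permutation p = 0.0022). The raw p of these 4 steps, 0.000977, is the smallest the test can give. Cyp7b1 exceeded Cyp7a1 by 0.96 ± 0.76 in 9 of 11 mice (adjusted permutation p = 0.00703). The other 4 neighbours did not differ beyond their spread over mice: Cyp8b1 and Slc10a1 (difference 0.03 ± 0.28, adjusted permutation p = 0.711), Abcb11 and Abcb4 (0.08 ± 0.19, p = 0.210), Nr1h4 and Cyp7b1 (0.31 ± 0.70, p = 0.210), and Cyp7a1 and Nr0b2 (0.44 ± 0.79, p = 0.155).

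**Figure D1:**
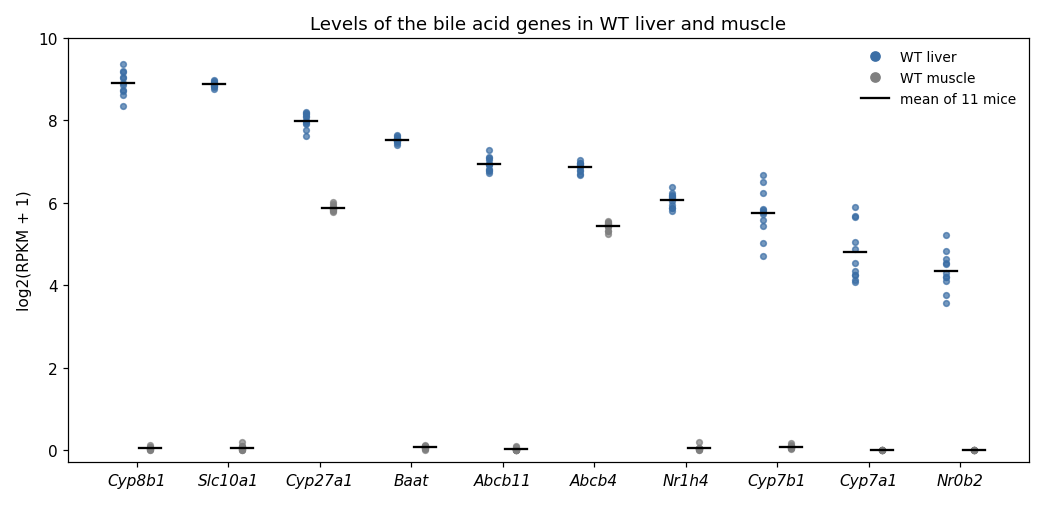
Each point is the log2(RPKM + 1) of 1 gene in 1 WT mouse, in liver (blue) or muscle (grey), and black lines are means of 11 mice. The 10 genes are ordered by their level in liver, and in muscle all but Cyp27a1 and Abcb4 sit at or near 0.

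The members also differed in how much they varied among mice of 1 genotype. Cyp7a1 was the most variable in WT liver, with an SD of 0.73 on the log2 CPM scale (n = 11 mice), larger than that of 97.3% of all genes tested in liver. Its level ran from 66.0 CPM in the lowest to 252 CPM in the highest WT mouse. Cyp7b1 (SD 0.63) and Nr0b2 (SD 0.51) followed, and both exceeded the SD of more than 90% of all genes. Baat was at the other end, with an SD of 0.05 that was larger than that of 1.08% of genes, and Slc10a1 (0.09) and Abcb4 (0.10) were nearly as even. The median SD over all genes was 0.17 in WT livers and 0.35 in KO livers, and 0.18 in the 7 KO livers left when the 4 that stood apart were taken out. In KO liver the same 3 genes were the most variable members, with SDs of 0.73 for Cyp7a1, 0.69 for Cyp7b1 and 0.60 for Nr0b2.

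Whether deletion of Slc16a13 altered these genes was asked in liver, gene by gene. None of the 10 members passed the threshold of 0.05 in the quasi-likelihood test of edgeR, adjusted by Benjamini-Hochberg over the 13005 genes tested, and none had an unadjusted p under 0.05. DESeq2 and limma-voom also called 0 members. DESeq2 gave 1 of them, Nr0b2, an unadjusted p under 0.05, and limma-voom gave 0. The background is low here, since 3 of the 13005 genes, or 0.0231%, were called in this comparison, while 12.9% had an unadjusted p under 0.05. 4 members had a higher and 6 a lower fitted level in KO liver, and their median log2 fold change was -0.01, beside -0.01 over all genes tested. Without the 4 livers standing apart, 3 were higher and 7 lower, with a median of -0.03. In bulk tissue, fewer cells of a type and less RNA per cell cannot be told apart. For 7 members the 95% interval of the difference excluded a 1.5-fold change in either direction. The exceptions were Cyp7a1, Cyp7b1 and Nr0b2, the genes with the largest spread over mice. These intervals are from the counts of all 22 livers, and none is given without the 4 livers or from RPKM. For Abcb11, 1 of the 7, the log2 fold change from RPKM was 0.22, outside its interval of -0.23 to 0.17.

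Of the enzymes, Cyp7a1 had 66.0, 86.7 and 252 CPM in the lowest, median and highest WT liver and 33.9, 104 and 184 CPM in KO livers. The groups overlapped almost wholly, and the 2 KO livers under the WT range (mice 532 and 602, 33.9 and 44.4 CPM) were both among the 4 that stood apart. The log2 fold change was -0.29 (standard error 0.29, 95% interval -0.89 to 0.31, adjusted p = 0.555), and -0.08 without those 4 livers (adjusted p = 0.999). Cyp8b1 had 615, 952 and 1228 CPM in WT and 648, 938 and 1272 CPM in KO livers. Its mean was 931 ± 176 CPM in WT and 956 ± 191 CPM in KO livers (SD, n = 11 each), with a log2 fold change of 0.04 (interval -0.21 to 0.28, adjusted p = 0.864). That small difference had the other sign, -0.05, without the 4 livers. The 2 KO livers above the highest WT value of Cyp8b1 were again among those 4.

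Cyp27a1 had 361, 467 and 561 CPM in WT livers and 344, 522 and 711 CPM in KO livers. 4 KO livers lay above the highest WT liver, 2 of them standing apart, and 1 lay below the lowest. The means were 474 ± 65.6 and 543 ± 108 CPM, and the log2 fold change was 0.20 (standard error 0.10, interval -0.02 to 0.41, adjusted p = 0.384). It was 0.12 without the 4 livers. Cyp7b1, the next enzyme of the alternative route, had 52.8, 115 and 221 CPM in WT and 50.7, 143 and 269 CPM in KO livers. 1 KO liver exceeded the WT range and 1 fell short of it. Its log2 fold change was 0.25 (standard error 0.26, interval -0.28 to 0.78, adjusted p = 0.570), and it took the other sign, -0.05, without the 4 livers. Baat was the most even of the members in both genotypes, at 302, 324 and 338 CPM in WT and 290, 320 and 345 CPM in KO livers. Its difference was bounded most tightly, at -0.01 with an interval from -0.09 to 0.08 (adjusted p = 0.939), and it was -0.03 without the 4 livers.

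**Figure D2:**
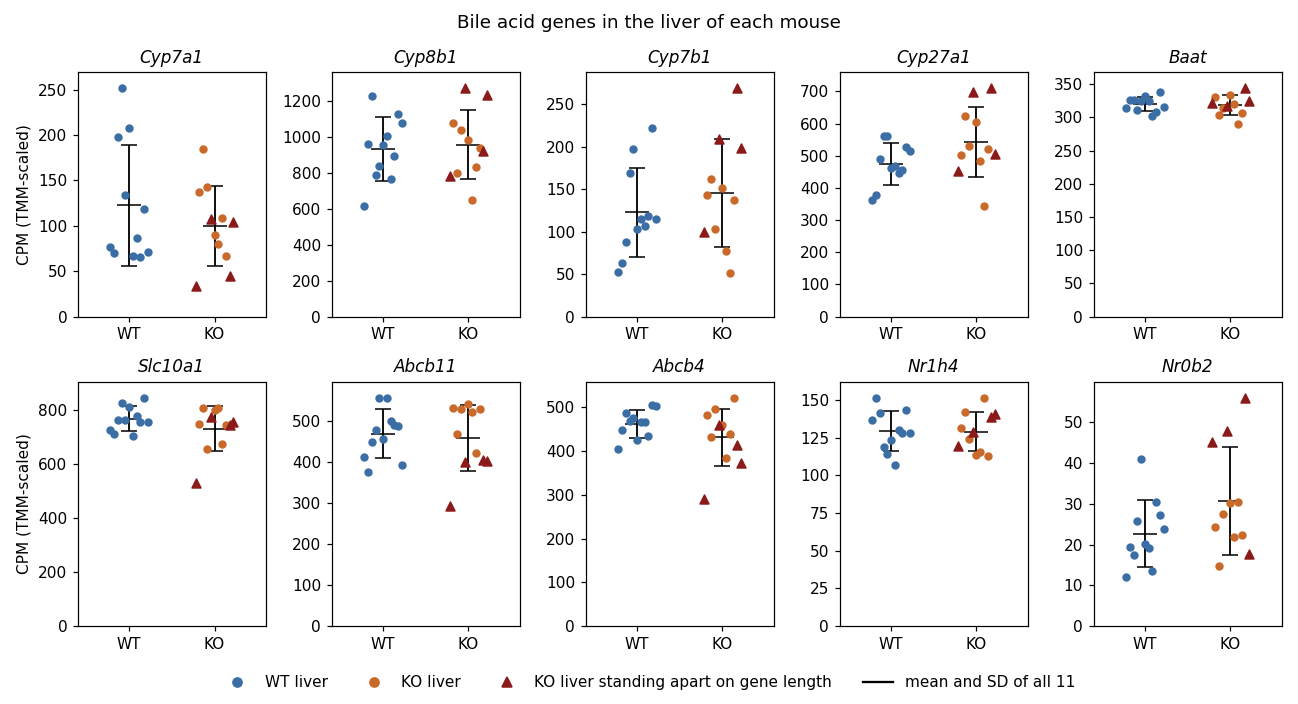
Each panel plots 1 gene, in TMM-scaled CPM on an axis from 0, with a point for each of 11 WT and 11 KO livers, and bars for mean and SD. Triangles are the 4 KO livers standing apart on gene length. They hold the 3 highest Nr0b2 values and the 2 lowest Cyp7a1 values of all 22 livers.

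Among the transporters, Slc10a1 had 704, 765 and 848 CPM in WT livers and 531, 748 and 811 CPM in KO livers. In 3 KO livers the level was under that of every WT liver, and 1 of these (mouse 532) stood apart on gene length. The log2 fold change was -0.07 (standard error 0.06, interval -0.20 to 0.06, adjusted p = 0.527), and -0.04 without the 4 livers. Abcb11 had 376, 478 and 556 CPM in WT and 293, 467 and 541 CPM in KO livers. Only the KO liver of mouse 532 lay outside the WT range. Its log2 fold change of -0.03 (interval -0.23 to 0.17, adjusted p = 0.860) became 0.11 without the 4 livers and 0.09 with each library's trend on gene length removed, so no direction can be given for it. Abcb4 had 404, 467 and 504 CPM in WT and 291, 438 and 522 CPM in KO livers. The 3 KO livers under the WT range included 2 of the 4 that stood apart. Its log2 fold change of -0.10 (interval -0.26 to 0.06, adjusted p = 0.472) was -0.01 without them and 0.04 with gene length removed.

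Of the nuclear receptors, Nr1h4 had 107, 128 and 151 CPM in WT livers and 113, 128 and 151 CPM in KO livers. No KO liver lay outside the WT range. The log2 fold change was -0.01 (standard error 0.07, interval -0.14 to 0.13, adjusted p = 0.968), and -0.02 without the 4 livers. Nr0b2, which its product induces, had 11.97, 20.1 and 40.9 CPM in WT livers and 14.8, 27.4 and 56.0 CPM in KO livers. It had the largest fitted difference of the 10 members, 0.44 on the log2 scale (standard error 0.22, interval -0.03 to 0.90, adjusted p = 0.384). The 3 KO livers above the WT range, at 45.2, 47.7 and 56.0 CPM, were mice 532, 583 and 602, all of which stood apart on gene length. The fourth such liver, mouse 611, had 17.6 CPM. The other 7 KO livers ranged from 14.8 to 30.5 CPM, with a mean of 24.5 ± 5.53 CPM against 22.7 ± 8.25 CPM in WT livers. Without the 4 livers the log2 fold change was 0.11 (adjusted p = 0.999), and with gene length removed it was 0.27. With 1132 bases Nr0b2 is the shortest of the members, and what part gene length has in its difference was not tested beyond these fits.

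**Figure D3:**
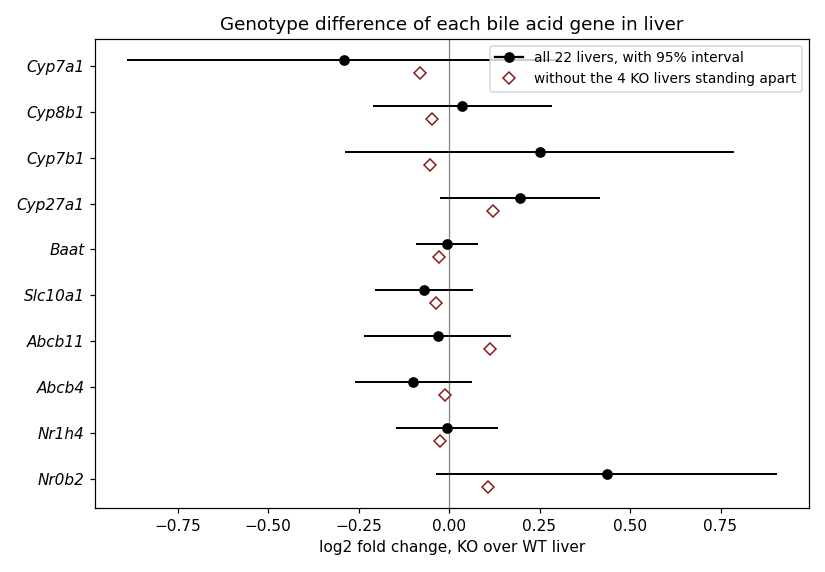
The horizontal axis is the log2 fold change of KO over WT liver, with 1 row per gene. Filled points with 95% intervals are from all 22 livers and open diamonds are from the fit without the 4 KO livers standing apart. Every interval contains 0, and the Nr0b2 value moves from 0.44 to 0.11.

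3 ratios between members were fixed to compare branches of the pathway within a library, where scaling cancels. The log2 ratio of Cyp7a1 to Cyp7b1, the classical over the alternative route, ran from -0.91 to 1.18 (median -0.29) in WT livers and from -2.60 to 1.10 (median -0.74) in KO livers. The means differed by -0.50, which was within the spread over mice (SDs 0.78 and 1.03, n = 11 each, two-sided permutation test, p = 0.509 adjusted over the 3 ratios). Without the 4 livers standing apart the difference was 0.05. The log2 ratio of Cyp8b1 to Cyp7a1 had means of 3.08 ± 0.75 in WT and 3.38 ± 0.70 in KO livers (adjusted permutation p = 0.509), and here too the sign turned without the 4 livers, to -0.06. For Abcb11 to Slc10a1, export over uptake, the means were -0.73 ± 0.19 and -0.69 ± 0.21 (adjusted permutation p = 0.697). That difference of 0.03 was 0.16 without the 4 livers (adjusted permutation p = 0.276) and 0.22 with gene length removed (adjusted permutation p = 0.0879). From the deposited RPKM values the same ratio was higher in KO livers by 0.36 (adjusted permutation p = 0.033). The Abcb11 values behind that ratio are described next.

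For Abcb11 the table of counts and the table of RPKM gave different pictures. A count divided by its RPKM and by the reads of the library gives the gene length that the RPKM assumes. For Cyp8b1, Cyp7b1 and Nr0b2, with 1 annotated transcript each in GENCODE vM21, this length was 1950, 2166 and 1132 bases in every liver. It was as constant for Slc10a1, Cyp27a1 and Abcb4, at 1674, 1890 and 4074 bases, though they have 4, 3 and 5 annotated transcripts. Nr1h4, with 3, ran from 1984 to 1989 bases in WT livers. Cyp7a1, with 2, ran from 4076 to 4172 bases in WT livers and from 3923 to 4172 bases in the 4 KO livers standing apart. For Abcb11 it ranged from 3669 to 4136 bases in WT livers and from 3799 to 4033 bases in 7 KO livers. In the 4 KO livers standing apart it was shorter in each, at 1440 bases (mouse 532), 1751 bases (mouse 602), 2404 bases (mouse 583) and 2979 bases (mouse 611). These 4 lengths followed the order of the slopes on gene length. The annotation lists 4 Abcb11 transcripts, 3 coding ones of 5025, 4893 and 4963 bases and a processed transcript of 648 bases. The same 4 livers had 293 to 403 CPM of Abcb11, under the WT median of 478 CPM, yet 135 to 201 RPKM, above the WT median of 121 RPKM. The log2 fold change of Abcb11 was -0.03 from counts and 0.22 from RPKM. Baat showed a smaller shift the other way in some of these livers, to 1941 bases in mice 532 and 602 against 1753 to 1806 bases in WT livers. It had 1820 bases in mouse 611 and 1791 bases, within the WT range, in mouse 583. How reads were assigned to transcripts is not given in the sources used here, and which table is nearer the amount of Abcb11 mRNA was not tested.

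**Figure D4:**
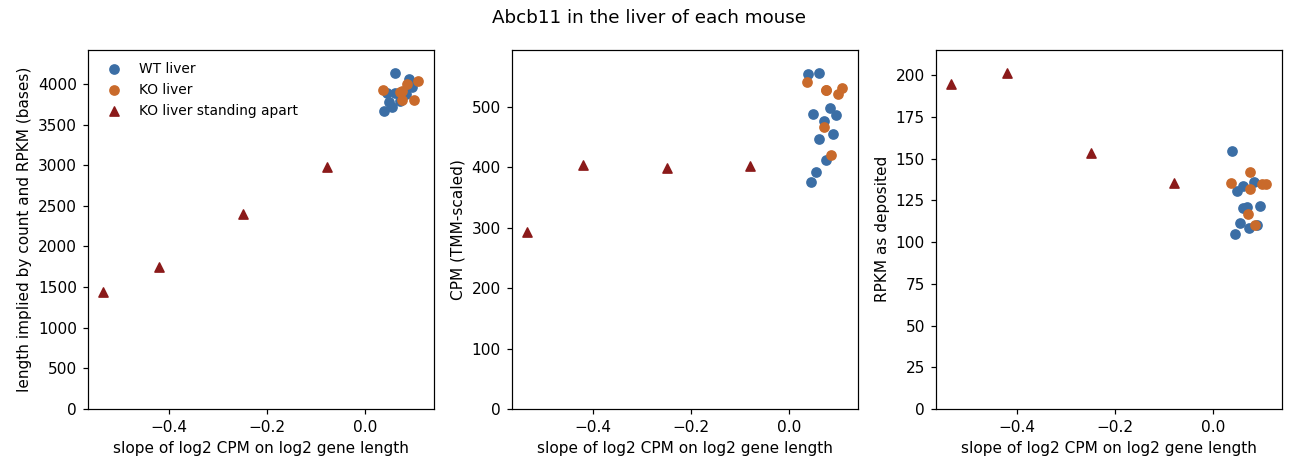
The horizontal axis of all 3 panels is a liver's slope on gene length (log2 CPM against log2 bases). The vertical axes are the Abcb11 length implied by count and RPKM in bases, its CPM and its RPKM, with a point for each of 22 livers. The 4 triangles, KO livers standing apart, have implied lengths of 1440 to 2979 bases, below every other liver.

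Over mice of 1 genotype, 6 pairs of members were correlated on log2 CPM, which makes 12 relations over both genotypes, with permutation p-values adjusted over the 12. Cyp7b1 and Cyp27a1, the enzymes of the alternative route, varied together in both genotypes. Pearson's r in WT livers was 0.90 (p = 0.00038 by permutation, 0.003 adjusted) and Spearman's rho 0.79 (permutation p = 0.00564, adjusted p = 0.0338), and r was 0.89 without the 2 mice farthest from the median of Cyp7b1 (n = 9, exact permutation p = 0.00321). In KO livers r was 0.87 (permutation p = 0.0005, adjusted p = 0.003) and rho 0.85 (permutation p = 0.00181, adjusted p = 0.0217). Leaving out the 2 farthest KO mice gave r = 0.66 (n = 9, exact permutation p = 0.0514), which did not pass the threshold. Taking out extreme mice also narrows the range of Cyp7b1, which by itself can lower r. In the 7 KO livers that did not stand apart, r was 0.91 (exact permutation p = 0.0042, adjusted p = 0.025) and rho 0.86 (exact permutation p = 0.0238, adjusted p = 0.143). Leaving out the 2 farthest of these 7 gave r = 0.55 (n = 5, exact permutation p = 0.35). So few mice over a narrower range cannot show whether the relation held without those 2. The mouse with the lowest Cyp7b1 in each genotype, at 52.8 and 50.7 CPM, was also the mouse with the lowest Cyp27a1, at 361 and 344 CPM.

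**Figure D5:**
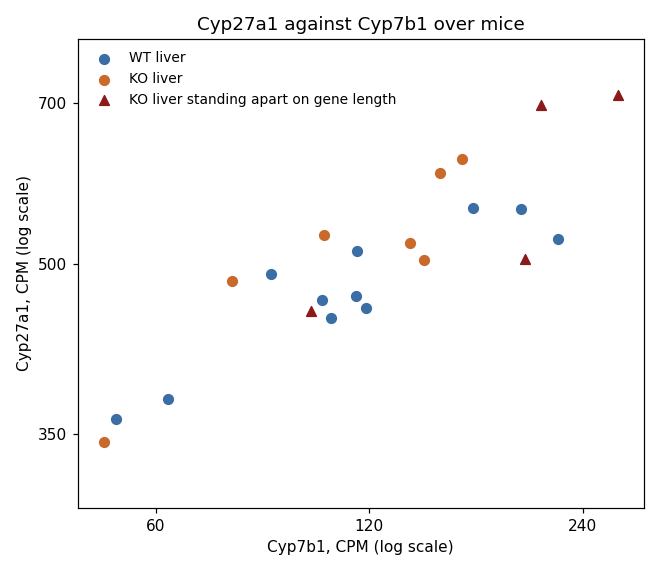
Each point is 1 liver, with Cyp7b1 on the horizontal and Cyp27a1 on the vertical axis, both in CPM on log scales. WT livers (blue), KO livers (orange) and the 4 KO livers standing apart (triangles) lie along 1 rising band, with r = 0.90 in WT and r = 0.87 in KO livers.

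The relations tested between the repressor Nr0b2 and Cyp7a1, Abcb11 or Slc10a1 were weaker. Nr0b2 and Cyp7a1 had r = 0.18 in WT livers (permutation p = 0.593, adjusted p = 0.647) and r = -0.63 in KO livers (permutation p = 0.0345, adjusted p = 0.103), with rho of 0.07 and -0.40 (adjusted p = 0.861 and 0.451). The KO value was -0.22 without the 2 mice farthest from the median of Cyp7a1 (n = 9, exact permutation p = 0.568), so its size depended on those mice. It was -0.36 in the 7 livers that did not stand apart, and 0.16 without the 2 farthest of these (n = 5). The difference between genotypes was not tested. Abcb4 and Abcb11, both transporters of the canalicular membrane, had r = 0.79 (permutation p = 0.00616, adjusted p = 0.0246) and rho = 0.63 (adjusted p = 0.175) in KO livers against r = 0.19 in WT livers (adjusted p = 0.647). The size of that KO value depended on few livers, since r was 0.43 without the 2 farthest mice and 0.33 without the 4 livers standing apart. None of the other 6 relations, with r from -0.51 to 0.40, passed after adjustment (adjusted p from 0.255 to 0.695). One of the 6 did from RPKM, with the other sign, as Abcb11 and Nr0b2 in KO livers had r = -0.51 from counts and 0.72 from RPKM (adjusted permutation p = 0.0448). It was 0.07 from counts without the 4 livers.

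The genes whose level followed Cyp7a1 and Nr0b2 most closely over the 11 WT livers were picked from 12885 genes by Pearson's r, as a description without a test. For Cyp7a1 they were Itpkb (r = 0.93), Pitpnc1 (0.92), Bmp1 (0.90), Dvl2 (0.90) and Plekhg3 (0.89). In the 11 KO livers the r of the same 5 genes with Cyp7a1 ranged from -0.27 (Dvl2) to 0.75 (Pitpnc1). For Nr0b2 they were Serpina11 (r = 0.89), Adgrg1 (0.88), Ube2a (0.88), Sart1 (0.86) and Rnf25 (0.86), with r from 0.27 to 0.74 in KO livers. Among the members, Slc10a1 was most like Cyp7a1 (r = 0.71 in WT, 0.50 in KO livers) and Cyp7b1 was most like Nr0b2 (0.77 in WT, 0.16 in KO livers). Cyp27a1 came next for Nr0b2 (0.71 in WT, 0.23 in KO livers), and neither of these relations of Nr0b2 was among the pairs tested.

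Further genes of the pathway were read from 3 lists in liver. Of 17 other synthesis genes 16 were tested, 7 with a higher and 9 with a lower fitted level in KO livers (median log2 fold change -0.01, and 8 higher and 8 lower without the 4 livers standing apart), and 0 were called by edgeR, DESeq2 or limma-voom, with 2 at an unadjusted p under 0.05 in each. Among all genes tested in liver, 12.9% (edgeR), 15.2% (DESeq2) and 12.7% (limma-voom) had such a p. The 2 in edgeR were Cyp2c70, which makes muricholic acids in mice (log2 fold change 0.37, adjusted p = 0.382), and Slc27a5, the bile acid-CoA ligase (0.19, adjusted p = 0.382), adjusted by Benjamini-Hochberg. Without the 4 livers their values were 0.24 and 0.08. Of 16 other transport genes 14 were tested, 3 higher and 11 lower (median -0.13), with 0 called by any of the 3 tools and 0 (edgeR and DESeq2) or 2 (limma-voom) at an unadjusted p under 0.05. The list turned without the 4 livers standing apart, to 12 higher and 2 lower with a median of 0.04. Abcc2, the canalicular exporter of conjugates, went from -0.35 to 0.03, and Slc10a5 from -0.41 to 0.02. Of 18 regulators 15 were tested, 5 higher and 10 lower (median -0.06), with 0 called by any of the 3 tools and 1 at an unadjusted p under 0.05 in each. In edgeR that gene was Nr1i3, the receptor CAR (log2 fold change 0.23, adjusted p = 0.382, and 0.21 without the 4 livers). With those 4 livers left out, 9 regulators were higher and 6 lower (median 0.01). Nr5a2, a receptor that activates Cyp7a1, had -0.29 and 0.01 without them. Fgf15, the intestinal hormone that restrains bile acid synthesis, had 0 reads in all 44 libraries, and Slc51a had at most 1.

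Cell type markers were read beside these values, and their part in them was not tested. All 7 Kupffer cell markers had a higher fitted level in KO livers (median log2 fold change 0.34, and 6 of 7 with a median of 0.13 without the 4 livers standing apart), with summed levels from 191 to 651 CPM in KO and from 214 to 283 CPM in WT livers. None was called, and 4 (edgeR), 5 (DESeq2) or 3 (limma-voom) had an unadjusted p under 0.05, beside 12.9%, 15.2% and 12.7% of all genes tested. Without the 4 livers 1 had such a p in edgeR, where 2.96% of all genes did. All 6 hepatocyte markers were higher (median 0.25), and 5 of 6 without the 4 livers (median 0.07). Of these 6, 0 were called and 2 (edgeR), 4 (DESeq2) or 2 (limma-voom) had an unadjusted p under 0.05, and 0 did in edgeR without the 4 livers. 1 of 7 stellate cell markers was higher (median -0.32), and 0 of 7 without the 4 livers (median -0.19), with summed levels from 158 to 312 CPM in KO and from 181 to 385 CPM in WT livers. Of the markers of cholangiocytes, the cells that line the bile ducts, 4 of 6 tested were higher (median 0.04, and 3 of 6 with 0.02 without the 4), with summed levels from 38.1 to 71.3 CPM in KO and from 38.6 to 71.3 CPM in WT livers. Their defining marker Krt19 had 11 to 37 reads in WT and 15 to 76 reads in KO livers, and Cftr had at most 7 reads in any liver. Pericentral hepatocyte markers, whose zone is where Cyp7a1 is known to be expressed most, had 3 of 7 higher (median -0.09), and periportal ones 6 of 7 (median 0.04). Without the 4 livers both lists had 4 of 7 higher, with medians of 0.06 for the pericentral list, whose sign turned, and 0.01 for the periportal list. Endothelial markers turned as well, from 1 of 5 higher (median -0.06) to 4 of 5 (median 0.06). Adipocyte markers had 1 of 2 tested higher (median -0.21, and -0.33 without the 4 livers), with at most 112 CPM summed in any liver. Myofibre markers had 0 of 3 tested higher (median -1.06), with at most 53.9 CPM summed in any liver. With the 4 livers left out, 0 of 4 tested were higher (median -2.55), and all 4 had an unadjusted p under 0.05 in edgeR, where 2.96% of all genes did, with 0 called after adjustment.

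In skeletal muscle, Abcb4 and Cyp27a1 were the members with reads enough to be tested. Abcb4 had 154, 175 and 197 CPM in the lowest, median and highest WT library and 156, 166 and 188 CPM in libraries labelled KO. Cyp27a1 had 99.5, 109 and 122 CPM in WT libraries and 77.4, 111 and 124 CPM in those labelled KO. Neither passed the edgeR test, adjusted by Benjamini-Hochberg, with log2 fold changes of -0.02 for Abcb4 (standard error 0.04, adjusted p = 0.909) and -0.05 for Cyp27a1 (standard error 0.07, adjusted p = 0.824), and 0 of both had an unadjusted p under 0.05 with edgeR, DESeq2 or limma-voom. In that comparison 1 of 13266 genes, or 0.00754%, was called. Cyp7a1 and Nr0b2 had 0 reads in all 22 muscle libraries. The other 6 members had between 0 and 15 reads per library each. All 8 together had 4 to 17 reads (median 11) in WT muscle libraries and 5 to 42 (median 16) in those labelled KO. The hepatocyte gene Alb had 5 to 109 reads (median 13) and 11 to 158 reads (median 40) in the same libraries. The library with the most reads on the 8 members, mouse 611 with 42 reads, also had the most Alb reads, and it was the deepest library, at 35218243 counted reads. The order did not hold further, as mouse 570 came next with 20 reads on the 8 members and had 11 Alb reads, the fewest of its group. Mouse 587 had 5 reads on the 8 members, the fewest of that group, and 52 Alb reads. The origin of these reads was not tested.

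Compared with muscle of the same WT mice, all 10 members were higher in liver, where 45.5% of 13907 genes tested were higher in edgeR's test, adjusted by Benjamini-Hochberg. Abcb4 differed least, with a log2 difference of 1.49 ± 0.05 (standard error; adjusted p = 1.2e-19), followed by Cyp27a1 with 2.18 ± 0.07 (adjusted p = 2.7e-20), and both were higher in liver in 11 of 11 mice. Set against a floor of 3 reads per muscle library, Cyp7a1 was at least 1079-fold and Nr0b2 at least 201-fold higher in liver. For the interaction of genotype and tissue, 8 members could be fitted, as Cyp7a1 and Nr0b2 had no muscle reads. 0 of the 8 were called by edgeR, DESeq2 or limma-voom, where edgeR called 1 of 14739 genes, or 0.00678%. 2, 2 and 1 of the 8 had an unadjusted p under 0.05, beside 16.2%, 16.8% and 15.3% of all genes with the same tools. The 2 genes in edgeR were Cyp27a1 and Nr1h4. Cyp27a1, well measured in both tissues, had a genotype difference 0.26 higher in liver than in muscle on the log2 scale (standard error 0.13, adjusted p = 0.308), and 0.15 higher without both tissues of the 4 mice. For Nr1h4 the fitted -1.15 (adjusted p = 0.277) came from 0 to 7 reads per muscle library in WT mice and 0 to 15 in those labelled KO, while its liver values fully overlapped, and it was -0.90 without both tissues of the 4 mice.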

How the data were processed

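RNA of liver and skeletal muscle from 22 mice was sequenced as 85 bp single-end reads after poly(A) selection and stranded library preparation. The authors deposited raw read counts per gene and RPKM values, which they scaled to gene length and library size. The aligner, counting program, genome build and annotation are not given in the sources used here, and the sequencing pool of each library (11 libraries per pool in the methods) was not used here. Groups and mouse numbers came from the labels. Symbols were matched to 36340 of 38202 identifiers. Counts were tested in R 4.3.3 with edgeR 4.0.16 (TMM, filterByExpr, its quasi-likelihood test, p adjusted by Benjamini-Hochberg with a threshold of 0.05), with DESeq2 1.42.0, limma-voom (limma 3.58.1), RLE factors, library size alone, no filter, at least 10 counts in every library, RPKM with pseudocounts of 0.1 and 1, gene length removed by loess (span 0.3) and each mouse left out as alternatives. A liver stood apart when its slope on gene length lay below the lowest WT slope by more than the WT range. The 95% intervals used the standard error and 20 residual degrees of freedom. Log2 CPM had a prior count of 2. Permutation tests used 100000 resamples, or all arrangements in correlations below 10 mice and in other tests with fewer than 100000 arrangements. The procedure was tested on simulated counts. No pair of libraries within a group held identical counts, and pairs across groups were not compared. Each library is 1 mouse. Pairing follows from the labels, as a number names 1 mouse in both tissues, and deviations from the group mean correlated by 0.10 on average within a mouse (from -0.03 to 0.26) and by -0.01 between mice. The genes named are the 10 members, Slc16a13, the 5 genes most like Cyp7a1 and Nr0b2, and at most 5 genes per pathway list by smallest p. The members, lists, motifs and tests were chosen with earlier results of these data known.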

Additional observations from a re-analysis of the deposited data

Results flagged for a closer look

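The genotype difference of Slc16a13 was not the same in both tissues. Fitted in each tissue alone with edgeR, its log2 fold change was -5.45 in liver (adjusted p = 2.8e-11). In muscle it was 0.64, which was not called (adjusted p = 0.495). The difference in liver was lower than that in muscle by a log2 value of -6.08 (standard error 0.38, adjusted p = 5.9e-16 for the interaction term in edgeR, adjusted by Benjamini-Hochberg), since KO livers had 0 to 8 reads against 99 to 302 in WT livers, while muscle libraries labelled KO had 11 to 40 reads against 4 to 22 in WT libraries. None of the 8 bile acid genes that could be fitted in both tissues passed that test (2 had an unadjusted p under 0.05, and DESeq2 and limma-voom also called 0).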

How the results depend on the processing

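The call of 0 members in liver, in muscle and for the interaction was the same under every alternative run. Over all results, 320 of 344 alternatives kept direction and side of the threshold, 20 reversed, 2 became weaker, 1 stronger and 1 moved. Among 693 values with 1 mouse left out, 671 kept direction and side and 22 reversed. For Baat and Nr1h4 the reversed log2 fold changes were 0.0072 and 0.0072 with DESeq2 and 0.0072 and 0.0073 with RLE factors. For Cyp8b1 they were -0.026 with library size alone and -0.026 from RPKM with either pseudocount. Abcb11 gave 0.22 from RPKM with either pseudocount and 0.088 with gene length removed, where Abcb4 gave 0.045. Without the 4 livers standing apart, Abcb11 gave 0.11, Cyp7b1 -0.054 and Cyp8b1 -0.048, and the ratios Cyp7a1 to Cyp7b1 and Cyp8b1 to Cyp7a1 gave 0.050 and -0.060. The ratio Abcb11 to Slc10a1 passed the threshold from RPKM, at 0.36, and was 0.16 without the 4 livers. In KO livers the correlation of Abcb11 and Nr0b2 (-0.51) was 0.72 from RPKM, which passed the threshold (adjusted permutation p = 0.0448), 0.32 with gene length removed and 0.067 without the 4 livers, and that of Abcb4 and Abcb11 (0.79) was -0.66, 0.56 and 0.33. The cause was not tested. With 1 mouse left out, Abcb11 ranged from -0.058 to 0.030, Baat from -0.013 to 0.0070, Cyp8b1 from -0.012 to 0.083, Nr1h4 from -0.031 to 0.029 and the ratio Abcb11 to Slc10a1 from -0.0047 to 0.072. Between liver and muscle, 10 members were called higher in liver, but 2 with at least 10 counts required in every library, which left 2 to test.

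With the mouse as a replicate block, that is with liver and muscle paired, the interaction called 0 of 8 members and liver against muscle called 10 of 10, and no call changed. Cyp27a1 then had an interaction of 0.26 and Nr1h4 of -1.11. The muscle counts of 0 to 15 reads limit what can be said of 8 members there.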
